A study of Mus musculus with 2 samples.

Results

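The tripartite motif (TRIM) genes encode a large family of proteins that share a RING, B-box and coiled-coil region, and most of them act as ubiquitin ligases. They were examined here in splenic CD4+ T cells of mice, sorted at day 14, in 1 library from HFD-MI animals given probucol, a cholesterol-lowering antioxidant drug, and 1 library from HFD-MI animals left untreated. The labels do not state the genotype, strain, age or number of animals behind either library, and the word HypoE, carried by the file headers of both, is not explained there. Members were all symbols in both tables that start with Trim followed by a digit, which gave 67 of 24346 symbols. Of these, 32 (47.8%) had a mean of 1 FPKM or more over both libraries and are called expressed, against 10663 (43.8%) of all symbols. FPKM is the number of sequenced fragments of a gene, divided by its transcript length in kilobases and scaled to the depth of the library. The values compare 2 single libraries, with no replicate check.

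TRIM proteins are best known in immune cells as regulators of antiviral sensing. Some restrict viruses directly, others attach ubiquitin to the RNA sensors RIG-I and MDA5 or to adaptors downstream of them, and many are themselves switched on by interferon. A smaller branch, the TIF1 proteins, works in the nucleus on chromatin and transcription. Several members have no known immune role and serve in muscle, neurons, red cell precursors or the germ line.

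Both libraries carried abundant T cell transcripts. The 6 T cell markers in the files, among them Cd3e and Lck, summed to 3930 FPKM with probucol, against 3970 FPKM untreated. Estimated fragments in genes, which depend on the transcript lengths chosen, were 1.04e+07 in each library. Symbols above 0 numbered 14289 with probucol and 16876 untreated. Of the CD8 T cell markers, Cd8a was at 0.139 FPKM with probucol, against 0.276 FPKM untreated, and Cd8b1 at 15.9 FPKM with probucol, against 19.6 FPKM untreated. Transcripts that mark other blood cells were less even. The 9 B cell markers summed to 63.1 FPKM with probucol, against 22.6 FPKM untreated, with all 6 expressed ones higher and Pax5 at 0 in both. The 9 erythroid markers summed to 359 FPKM with probucol, against 1180 FPKM untreated, and all 9 were lower. The 9 macrophage markers summed to 189 FPKM with probucol and 178 FPKM untreated, and the 6 neutrophil markers to 1010 FPKM with probucol and 891 FPKM untreated. Much of these sums came from Lyz2 and S100a8. Of the 8 expressed macrophage markers, 6 were higher and 2 lower. All 6 neutrophil markers were higher, from a ratio of 1.02 for Ngp to 4.27 for Elane. The 6 natural killer markers summed to 7.78 FPKM with probucol and 18.0 FPKM untreated. Of the 5 expressed ones, 4 were lower and 1, Klrb1c, was higher. Ncr1, with a mean below 1 FPKM, was at 1.04 FPKM with probucol, against 0.0795 FPKM untreated. The 6 dendritic cell markers summed to 2.66 FPKM with probucol, against 3.48 FPKM untreated. Only Xcr1 was expressed, at 0.992 FPKM with probucol, against 1.86 FPKM untreated. Of the others, Zbtb46 was lower, and Clec9a, Flt3, Siglech and Itgax were higher. None of these marker lists holds a TRIM gene, and the part of these cells in the TRIM values was not tested. In a bulk library, fewer cells of a type and less RNA per cell cannot be told apart.

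Of the 14 interferon-induced TRIM genes listed from general knowledge, 12 were in the files and 10 were expressed. Their promoters were searched for the core letters of an element through which interferon can act. Windows of 300 bases, from 250 before to 50 after the start site on GRCm38.p6 (RefSeq), were searched on both strands for GAAANNGAAA, the core of the interferon-stimulated response element, with overlapping matches counted. The letters were found in 7 of the 9 expressed interferon-induced genes that had a window, which were Trim12a, Trim12c, Trim21, Trim26, Trim30a, Trim30d and Trim34a, and in 0 of 14 other expressed TRIM genes with a window. All but Trim21 and Trim26 belong to a cluster of related genes on chromosome 7, so the 7 are not independent. Among all 27025 genes with a window, 3.99% held them, and among 8132 expressed genes 3.87%. The windows of Trim25 and Trim56 do not hold these letters. A match is a description of the sequence and does not show that the site is used in these cells. Shown here are the windows of 4 genes on the minus strand of chromosome 7 that the results return to, 5′ to 3′ on the strand of the gene, with matches in capitals. They are Trim21 at chr7:102565433-102565732, Trim12a at chr7:104315446-104315745, and the neighbours Trim30a at chr7:104465144-104465443 and Trim30d at chr7:104507800-104508099.
Trim21: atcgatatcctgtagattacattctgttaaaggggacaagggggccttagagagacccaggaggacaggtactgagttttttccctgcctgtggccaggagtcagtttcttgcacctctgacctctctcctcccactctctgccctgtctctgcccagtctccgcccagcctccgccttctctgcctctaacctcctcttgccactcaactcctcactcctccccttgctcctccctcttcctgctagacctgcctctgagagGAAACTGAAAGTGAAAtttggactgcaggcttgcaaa
Trim12a: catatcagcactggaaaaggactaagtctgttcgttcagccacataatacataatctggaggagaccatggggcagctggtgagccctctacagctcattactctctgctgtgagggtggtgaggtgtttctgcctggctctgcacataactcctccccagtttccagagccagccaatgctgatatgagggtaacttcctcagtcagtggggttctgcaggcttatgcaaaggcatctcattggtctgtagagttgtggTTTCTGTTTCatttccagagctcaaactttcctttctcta
Trim30a: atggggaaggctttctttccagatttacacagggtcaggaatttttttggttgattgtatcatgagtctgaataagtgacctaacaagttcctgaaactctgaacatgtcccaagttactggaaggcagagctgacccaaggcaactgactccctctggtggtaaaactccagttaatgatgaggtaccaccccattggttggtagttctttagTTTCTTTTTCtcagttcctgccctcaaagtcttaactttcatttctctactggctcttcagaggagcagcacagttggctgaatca
Trim30d: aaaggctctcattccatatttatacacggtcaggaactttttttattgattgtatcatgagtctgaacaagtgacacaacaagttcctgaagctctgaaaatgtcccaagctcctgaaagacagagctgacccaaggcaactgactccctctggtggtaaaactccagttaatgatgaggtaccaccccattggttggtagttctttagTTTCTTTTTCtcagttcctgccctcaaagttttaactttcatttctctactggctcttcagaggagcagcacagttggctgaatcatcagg
The Trim21 window holds 2 overlapping matches, beginning 13 and 19 bases after the start site. The match in Trim12a begins 10 bases after it, on the opposite strand. In Trim30a and Trim30d the match lies 36 and 41 bases before the start site, also on the opposite strand. These last windows had 276 of 295 bases identical when laid over each other without gaps (93.6%). Trim30a has a second window, at chr7:104446076-104446375, which also holds a match, and of its bases 133 of 256 (52.0%) were identical to Trim30d in the best such overlap. As no gaps were allowed, short length differences between the windows lower this share.

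TRIM expression in the CD4+ T cells was close between the libraries. The 32 expressed members summed to 692 FPKM with probucol, against 675 FPKM untreated. The median log2 ratio of probucol over untreated, taken on FPKM + 1, was 0.013 over the 32 members and 0.017 over all 10663 expressed genes, with 16 members higher and 16 lower. Of all expressed genes, 52.7% were higher and 47.3% lower. No member was 2-fold higher or lower on this scale, where 1.62% of all expressed genes were at least 2-fold higher and 1.98% at least 2-fold lower. At a fold of 1.5, only Trim68 was higher, against 5.99% of expressed genes, and Trim30d and Trim3 were lower, against 5.53%. With a pseudocount of 0.1 in place of 1, Trim30d was past 2-fold, and with a pseudocount of 5 none of the 3 passed 1.5-fold. The shares of called members are near or under those of all genes.

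**Figure D1:**
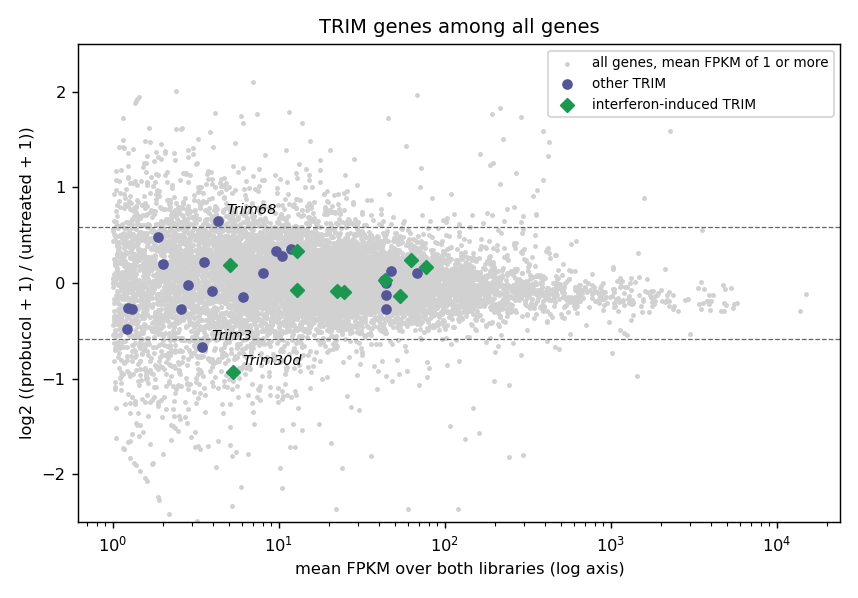
Mean FPKM over both libraries (log axis) against the log2 ratio of probucol over untreated on FPKM + 1, for all 10663 expressed genes (grey points), the 10 interferon-induced TRIM genes (diamonds) and the other 22 TRIM genes (circles); dashed lines mark a fold of 1.5, and 59 genes lie beyond the vertical axis. Trim68 lies above the upper line, and Trim3 and Trim30d below the lower one.

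The most abundant members were a mixed group of immune regulators and nuclear factors. Trim12a, a mouse relative of the primate retroviral restriction factor TRIM5, led with 81.5 FPKM with probucol, against 72.3 FPKM untreated. Trim8, a regulator of NF-kB and STAT signalling, followed with 70.1 FPKM with probucol, against 65.1 FPKM untreated. Trim14, an adaptor of the mitochondrial antiviral protein MAVS, had 67.3 FPKM with probucol, against 56.9 FPKM untreated. Trim26, a ubiquitin ligase encoded in the MHC region, had 51.1 FPKM with probucol, against 56.3 FPKM untreated, and Trim35 had 49.7 FPKM with probucol, against 45.3 FPKM untreated. The 10 most abundant members had means between 42.8 and 76.9 FPKM, and 16 members had means of 10 FPKM or more. The median of the 32 means was 9.97 FPKM, against 14.8 FPKM over all expressed genes.

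**Figure D2:**
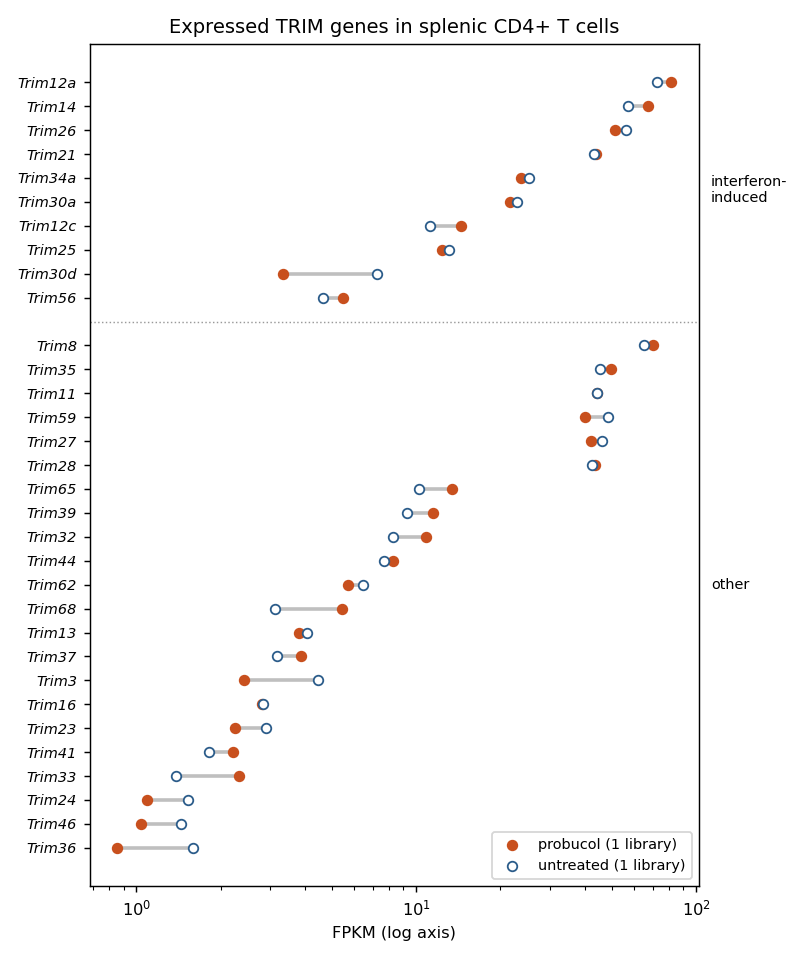
FPKM (log axis) of the 32 expressed TRIM genes in the probucol library (filled) and the untreated library (open), 1 library each, with interferon-induced members above the dotted line. Most pairs nearly coincide; Trim30d, Trim3, Trim36, Trim68 and Trim33 stand apart, all under 8 FPKM.

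Intervals on the FPKM ratios of single genes were computed from estimated fragment numbers and cover counting error only. By these 95% intervals, 11 of the 32 members lay above a ratio of 1, where 29.0% of all expressed genes with a transcript length did, and 6 lay below it, where 24.2% did. With the median length of all annotated transcripts in place of those paired with RefSeq, an alternative chosen after the data were seen, 7 lay above and 5 below, and Trim8, Trim27, Trim33, Trim35 and Trim56 then had intervals that include 1.

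Interferon-induced members showed no common direction. Of the 10, 5 were higher and 5 lower, and the median log2 ratio was -0.023, against 0.015 for the 22 other expressed members. The cluster of TRIM5-like genes on chromosome 7 held the widest range. Trim12a (chromosome 7, 104299894 to 104315466, mm10) had a ratio of 1.13 (95% counting interval 1.03 to 1.23). Trim12c, its neighbour and close relative, had 14.4 FPKM with probucol, against 11.2 FPKM untreated, a ratio of 1.29 (1.11 to 1.5). Of the 50-base stretches of Trim12c transcripts, 33.7% also occur in other genes, mainly Trim5 and Trim12a, so its share of fragments is uncertain. For Trim12a, 10.5% of the stretches also occur in other genes, mainly Trim5 and Trim12c. Trim5 itself has no value here. Trim34a had 23.7 FPKM with probucol, against 25.3 FPKM untreated, a ratio of 0.937 (0.834 to 1.05), with 59.7% of its 50-base stretches shared, mainly with Trim34b. Trim34b, below the threshold, was at 0.453 FPKM with probucol and listed at 0 untreated.

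The Trim30 genes differed from each other. Trim30a (104409025 to 104465193), which restrains NF-kB signalling in mouse cells, had 21.6 FPKM with probucol, against 23.0 FPKM untreated, a ratio of 0.941 (0.852 to 1.04). Trim30d (104470014 to 104507849), the next gene along the chromosome and a relative of Trim30a, had 3.34 FPKM with probucol, against 7.26 FPKM untreated. It was 2.18-fold lower with probucol (1.66 to 2.88), on about 79 fragments with probucol and 173 untreated, and its log2 ratio on FPKM + 1 was -0.93, the lowest of the 32. Laid over each other without gaps, the printed promoter windows of the pair are 93.6% identical, and the second Trim30a window reaches 52.0% with Trim30d. Without gaps, a short length difference makes the bases beyond it count as unlike, so the 52.0% does not measure how far that window differs. Of the 50-base stretches of Trim30d transcripts, 7.49% are shared with other Trim30 genes. Below the threshold, Trim30b was listed at 0 with probucol and at 0.273 FPKM untreated, and the pseudogene Trim30e-ps1 at 0 with probucol and 0.653 FPKM untreated. At these levels, about 7 and 11 fragments untreated, the values rest on few reads.

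The interferon-induced members outside this cluster were all within 1.5-fold, with a median log2 ratio of 0.028. Trim21, the cytosolic antibody receptor also known as the autoantigen Ro52, had 44.0 FPKM with probucol, against 43.1 FPKM untreated, a ratio of 1.02 (0.938 to 1.11). Trim25, the ubiquitin ligase of RIG-I, had 12.4 FPKM with probucol, against 13.1 FPKM untreated, a ratio of 0.946 (0.849 to 1.05). Trim56, which acts on the STING pathway, had 5.47 FPKM with probucol, against 4.66 FPKM untreated, a ratio of 1.17 (1.03 to 1.34). Trim14 had a ratio of 1.18 (1.07 to 1.31), but 38.0% of its annotated exon bases overlap other genes, among them Nans on the opposite strand, and the labels name no counting by strand. Trim26 was 1.10-fold lower (1.03 to 1.18).

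Other interferon-induced genes, from a comparison list of 25 chosen with earlier results of these data known, mostly lay lower with probucol. Of the 24 expressed, 21 were lower and 3 higher, 8 were at least 1.5-fold lower and 1 at least 1.5-fold higher, and the median log2 ratio was -0.43. Of all expressed genes, 47.3% were lower and 52.7% higher, 5.53% at least 1.5-fold lower and 5.99% at least 1.5-fold higher. The low end held the antiviral genes Rsad2, Ifi44 and Ifit3, with log2 ratios of -1.23, -1.20 and -1.19, while Oas2 was at 1.41. Their promoter windows also held GAAANNGAAA often, in 10 of the 16 expressed list members with a window (62.5%). The median of the 10 interferon-induced TRIM genes lay near that of all genes and that of the list below it, and whether the lists differ was not tested. Pml, the interferon-induced TRIM19 under another symbol, had 13.9 FPKM with probucol, against 15.2 FPKM untreated, a ratio of 0.914 (0.817 to 1.03). The other 3 TRIM proteins with their own symbols, Mid1, Mid2 and Mefv, were below 1 FPKM in both libraries.

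**Figure D3:**
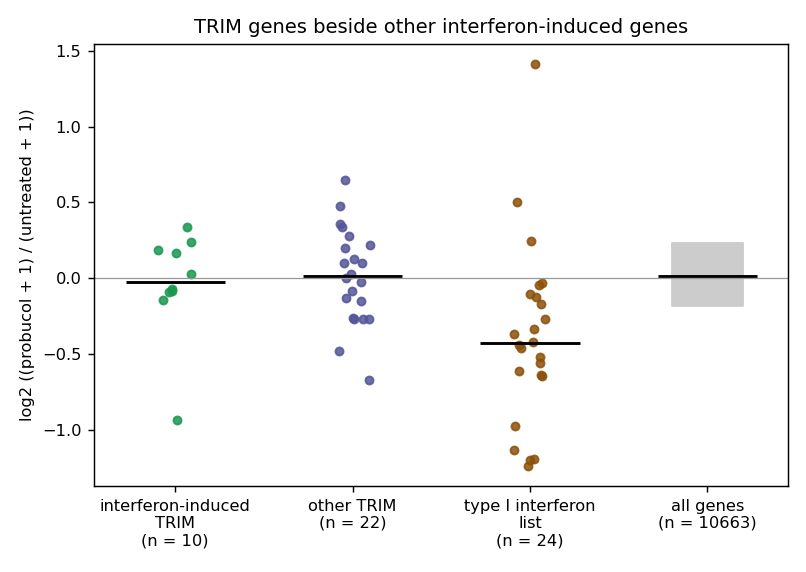
Log2 ratio of probucol over untreated on FPKM + 1 for the 10 interferon-induced TRIM genes, the 22 other expressed TRIM genes and the 24 expressed genes of the type I interferon list (points), and for all genes (box, 25th to 75th percentile); black lines are medians. The TRIM medians are -0.023 and 0.015, that of the type I interferon list is -0.43 and that of all genes 0.017.

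Innate regulators that are not on the interferon list made up the next group, with 11 of 13 expressed, 6 of them higher and 5 lower, and a median log2 ratio of 0.10. Trim68 (chromosome 7, 102677582 to 102687327, mm10), related to the Ro52 protein and reported in human cells to limit interferon production, had 5.45 FPKM with probucol, against 3.12 FPKM untreated. Its ratio was 1.75 (1.28 to 2.39), on about 116 fragments with probucol and 67 untreated, and its log2 ratio on FPKM + 1 of 0.65 was the highest of the 32. Trim65, the ubiquitin ligase of MDA5, had 13.4 FPKM with probucol, against 10.2 FPKM untreated, a ratio of 1.31 (1.13 to 1.54). Trim32, which carries an NHL domain and is mutated in a human muscular dystrophy, had 10.8 FPKM with probucol, against 8.29 FPKM untreated, a ratio of 1.30 (1.10 to 1.54). Trim39, a ligase that controls cell cycle and death regulators, had 11.5 FPKM with probucol, against 9.30 FPKM untreated, a ratio of 1.24 (1.05 to 1.46). These 3 were all higher with probucol by less than 1.5-fold.

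Lower in this group was Trim59, a membrane-anchored member, with 40.0 FPKM with probucol, against 48.5 FPKM untreated, 1.21-fold lower (1.12 to 1.31). Trim27, a ligase that restrains CD4 T cell activation through a class II PI3 kinase, had 42.0 FPKM with probucol, against 46.1 FPKM untreated, 1.10-fold lower (1.03 to 1.17). Trim8 had a ratio of 1.08 (1.01 to 1.14) and Trim11 of 0.998 (0.910 to 1.10). The less abundant Trim13, Trim23 and Trim41, at mean levels between 2.01 and 3.95 FPKM, had intervals that include 1. Trim31 and Trim38 were listed at 0 in both libraries.

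The partners of these proteins in RNA and DNA sensing were expressed throughout. All 15 listed genes of the RIG-I and STING pathways were at 1 FPKM or more, 10 higher and 5 lower, with a median log2 ratio of 0.10. Of all expressed genes, 52.7% were higher, 47.3% lower and 5.99% at least 1.5-fold higher, with a median of 0.017. Irf7, Ifih1 and Ddx58 are also on the type I interferon list, so the lists are not separate. Traf6, a ubiquitin ligase of innate signalling, had 13.7 FPKM with probucol, against 8.34 FPKM untreated, a ratio of 1.64 (1.47 to 1.84), and was alone past 1.5-fold. Ddx58, which encodes RIG-I, the target of Trim25, had 27.1 FPKM with probucol, against 18.8 FPKM untreated, a ratio of 1.44 (1.31 to 1.59). At the low end, Irf7 was 1.38-fold lower (1.27 to 1.48) and Dhx58 1.36-fold lower (1.14 to 1.64).

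The nuclear TIF1 members had unequal levels. Trim28, the KAP1 corepressor that silences retroelements with KRAB zinc finger proteins, had 43.4 FPKM with probucol, against 42.3 FPKM untreated, a ratio of 1.02 (0.947 to 1.11). Trim33, or TIF1 gamma, which modulates TGF-beta signalling through SMAD proteins, had 2.33 FPKM with probucol, against 1.38 FPKM untreated. Its ratio of 1.68 (1.30 to 2.2) corresponds to a log2 ratio of 0.48 on FPKM + 1, under the fold of 1.5. Trim24, or TIF1 alpha, a coregulator of nuclear receptors, had 1.09 FPKM with probucol, against 1.53 FPKM untreated, 1.40-fold lower with an interval that includes no difference (0.910 to 2.12). Trim66 was at 0.0225 FPKM with probucol, against 0.0895 FPKM untreated, about 1 fragment with probucol and 4 untreated. All 9 listed corepressor partners of KAP1 were expressed, and 8 were higher, with a median log2 ratio of 0.15. Of all expressed genes, 52.7% were higher, and their median was 0.017. Only 1 partner, Chd3, was at least 1.5-fold higher on FPKM + 1, where 5.99% of all expressed genes were. Chd3, a remodelling ATPase of the NuRD complex, had 27.4 FPKM with probucol, against 16.1 FPKM untreated, a ratio of 1.71 (1.59 to 1.84), while the histone methyltransferase Setdb1 had 13.6 FPKM with probucol, against 15.0 FPKM untreated, a ratio of 0.910 (0.812 to 1.02).

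**Figure D4:**
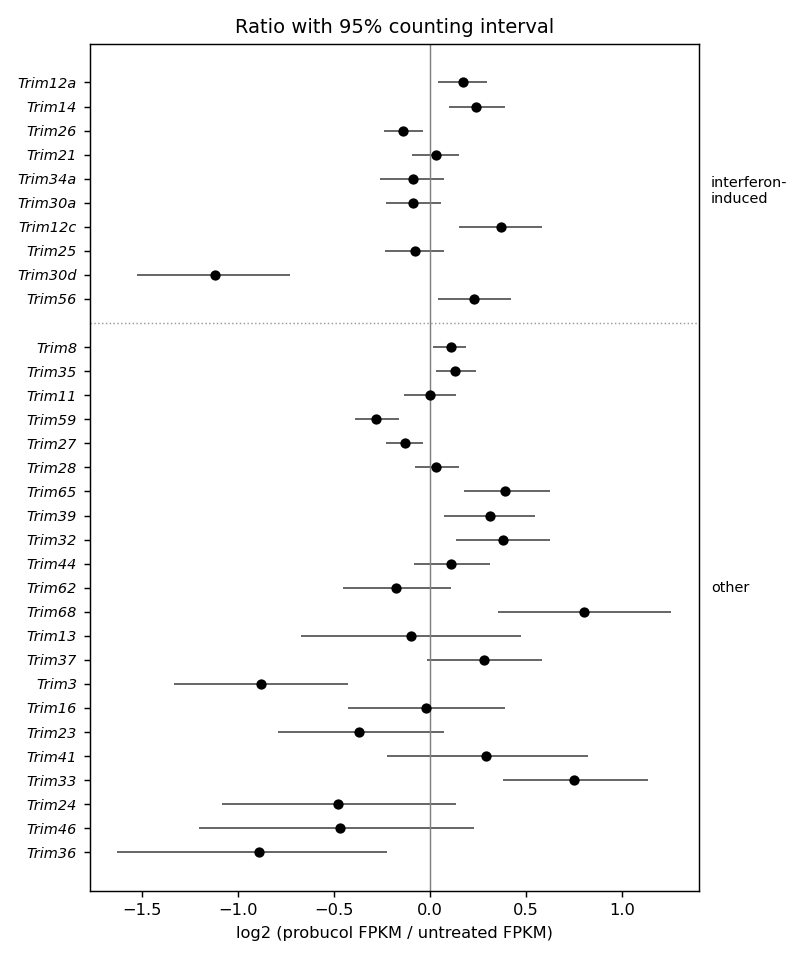
Log2 of the ratio of FPKM values, probucol over untreated, for the 32 expressed TRIM genes, with 95% counting intervals (bars) from estimated fragments; the vertical line marks equal values. Intervals of 11 genes lie above the line and of 6 below it, and they widen toward the low-abundance genes at the foot of each group.

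Members known mainly from neurons, muscle or development were rare in these cells. Trim3 (chromosome 7, 105604463 to 105633571, mm10), an NHL-domain ligase of the brain, had 2.43 FPKM with probucol, against 4.46 FPKM untreated, 1.84-fold lower (1.35 to 2.52), on about 65 fragments with probucol and 120 untreated. Its relative Trim2 was below the threshold, at 0.0697 FPKM with probucol, against 0.449 FPKM untreated, about 5 fragments with probucol and 31 untreated. Trim36, a microtubule-associated member first described in sperm, had 0.855 FPKM with probucol, against 1.59 FPKM untreated, 1.86-fold lower (1.17 to 3.09). Trim46, which organises microtubules in axons, had 1.04 FPKM with probucol, against 1.44 FPKM untreated, 1.38-fold lower (0.851 to 2.30). The muscle genes Trim54, Trim55 and Trim63 were listed at 0 in both libraries. Trim72, also a muscle gene, was at 0.0443 FPKM with probucol and listed at 0 untreated. The remaining expressed members were Trim35, with a ratio of 1.10 (1.02 to 1.18), and Trim16, Trim37, Trim44 and Trim62, with ratios between 0.885 and 1.21 and intervals that include 1. Trim16 is known for its part in clearing damaged lysosomes, and Trim37 is mutated in a human growth disorder.

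Both members known from red cell precursors were below the threshold. Trim58, which acts on dynein during red cell maturation, was listed at 0 in both libraries, and Trim10, needed for terminal erythroid differentiation, was at 0.541 FPKM with probucol, against 1.03 FPKM untreated, about 11 fragments with probucol and 21 untreated. Trim10 was 1.90-fold lower, with an interval of 0.876 to 4.36 that includes no difference. The summed erythroid markers were also lower, at 359 FPKM with probucol, against 1180 FPKM untreated, and their part in the Trim10 value was not tested.

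Of the 35 members below the threshold, 13 were listed at 0 in both libraries, 9 at 0 with probucol only, 3 at 0 untreated only, and 10 were above 0 in both. As shares of the 67 members, the first 3 counts are 19.4%, 13.4% and 4.48%, where 27.8%, 13.5% and 2.88% of all symbols fell in the same classes. A 0 in these tables can also stand for a failed estimate. The germ line genes Trim42, Trim43a, Trim43b, Trim43c, Trim60, Trim61, Trim69, Trim75 and Trim80 were all in this set, none above 0.448 FPKM in either library. Trim6, Trim9, Trim15, Trim17, Trim29, Trim40, Trim45, Trim47, Trim50, Trim67, Trim71 and Trim72 were also in it, none above 0.656 FPKM in either library. Closest above the threshold were Trim36, Trim46 and Trim24, with means of 1.22, 1.24 and 1.31 FPKM. Closest below it were Trim52, Trim7 and Trim10, with means of 0.940, 0.864 and 0.785 FPKM. Trim52 was at 1.32 FPKM with probucol, against 0.560 FPKM untreated, about 21 fragments with probucol and 9 untreated, a ratio of 2.35 (1.03 to 5.82). Trim7 was at 0.693 FPKM with probucol, against 1.03 FPKM untreated, 1.49-fold lower with an interval of 0.723 to 3.02 that includes no difference.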

How the data were processed

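RNA of 2 libraries was compared, 1 per group. The deposited values are FPKM per gene symbol, per the file headers; total RNA was turned into full-length cDNA with SMART-Seq HT chemistry, per the labels' protocols. Per the submitters' processing notes, which give no role or order, the tools were TopHat2 2.1.1, Bowtie2 and Cuffdiff 2.2.1 and the build mm10. Annotation, read filters and scaling: not given in the sources used here. Because FPKM are no counts, count models were not used, and with 1 library per group no p-value was computed.

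Log2 ratios used FPKM + 1, which understates changes of low genes; printed ratios of single genes are of FPKM itself. Genes with a mean of 1 FPKM or more were compared. The worth of 1 fragment was fitted from steps in low values of genes with 1 transcript of 800 to 10000 bp: 0.1005 FPKM at 1 kb (probucol) and 0.100 FPKM (untreated), after 210 bp were taken off each length, with 77.5% and 77.9% of low values within 0.1 of a whole number. Fragments per gene used the median length of its RefSeq-paired transcripts in GENCODE M21 (GRCm38). This length was taken after fragment totals were seen, as the median over all annotated transcripts gave a lower total. Intervals are Clopper-Pearson (exact binomial) ones. They reflect counting error alone, PCR copies included, and only roughly so where a gene has several transcripts. The procedure was tested on simulated data for genes with 1 transcript and counting error only, which does not cover genes with several transcripts. Scripts ran in Python 3.11.15 with pandas 2.3.3 and scipy 1.17.1.

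Every expressed member was named; full values went to interferon-induced and TIF1 members, those past 1.5-fold, the 5 most abundant, the erythroid pair and the 3 nearest the threshold on each side. Full values of further members were added after their values were seen. Of the comparison lists, up to 4 genes with extreme ratios were named. The members and lists were chosen with earlier results of these data known. Trim5 and Trim30c are not among the 67 member symbols and so have no values here.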

Additional observations from a re-analysis of the deposited data

How the results depend on the processing

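With 7 alternatives in pseudocount, filter or scaling, the median log2 ratio of expressed TRIM members stayed between -0.0048 and 0.035. That of interferon-induced members was 0.028 without the Trim5-like cluster and between -0.04 and -0.00095 otherwise. The broad list of interferon-induced members added no expressed gene and so is no separate check. At a mean of 5 FPKM or more, 21 members were expressed, 0 at least 1.5-fold higher and 1 lower. With pseudocount 0.1, 1 member (Trim30d) was at least 2-fold lower, and 2 (Trim33 and Trim68) were at least 1.5-fold higher and 3 (Trim3, Trim30d and Trim36) at least 1.5-fold lower. With no filter, 3 were at least 1.5-fold lower, Trim30e-ps1 being added. With pseudocount 5, 0 were 1.5-fold higher and 0 lower. The cause of these moves lies in the construction: a larger pseudocount shrinks ratios of low genes, and a higher filter removes them. Of 140 single-gene values, 136 stayed within the gene's counting interval and 4 moved, all toward 0 with pseudocount 5; Trim11 and Trim16, near 0, changed sign with scaling. With the length of all annotated transcripts, chosen after the data were seen, 7 counting intervals lay above 1. No paired analysis was possible because each group has 1 library, and no replicate could be left out. Depth limits most the members under 5 FPKM.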

Other observations

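On FPKM + 1, the 3 members past a fold of 1.5 all lie on chromosome 7, a grouping noticed after their values were seen and not tested. Of the 9 expressed TRIM genes on chromosome 7, Trim68 was higher with probucol and Trim30d and Trim3 were lower, and of the 23 on other chromosomes 0 passed that fold. Over all expressed genes, 5.99% were at least 1.5-fold higher and 5.53% at least 1.5-fold lower. The share among all chromosome 7 genes was not computed. The grouping depends on the pseudocount: with 0.1 in place of 1, Trim33 on chromosome 3, at a log2 ratio of 0.71, and Trim36 on chromosome 18, at -0.82, also passed it. The expressed TRIM genes between Trim68 and Trim30d, which are Trim34a, Trim12a, Trim12c and Trim30a, had FPKM ratios of 0.937, 1.13, 1.29 and 0.941.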
